A study of Mus musculus with 36 samples.

Results

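The comparison described here was between Th1 cells of the Ets1-SE-KO mouse strain (KO) that had received a retrovirus carrying Ets1 and KO Th1 cells that had received an empty retrovirus. It rested on 8 of the 36 libraries of the series, 4 with each virus. The series profiled RNA of CD4 T cells of C57BL/6J wild-type mice (WT) and of KO mice, as naive cells and after culture towards the Th1 or Th2 fate. The name of the KO strain points to loss of the Ets1 super-enhancer, which is a dense group of enhancers. The sources used here do not give the extent of the deletion. Members were chosen by the virus and genotype in the names of the deposited tables. By these names both virus groups carried the KO allele, which the strain label of the empty-virus group contradicts. Both groups came from naive CD4 T cells of spleen cultured for 6 days with interleukin 12, interleukin 2 and antibodies against CD3 and CD28. Levels are also given for untransduced KO Th1 cells (2 libraries), untransduced WT Th1 cells (2) and WT Th1 cells with empty virus (4). Whether transduced cells were sorted, and which promoter drove Ets1 in the virus, the sources used here do not say.

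Ets1, a founding member of the ETS transcription factors, binds DNA at a GGAA core and is abundant in T cells. In Th1 cells it acts with T-bet, the product of Tbx21, at genes of the Th1 programme, of which interferon gamma (Ifng) is the signature cytokine. Putting a gene back by retrovirus into cells that lack its regulatory DNA asks which of the altered genes follow the factor itself.

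The labels of the 4 empty-virus libraries contradict one another. Their tables are filed as KO with empty virus and their transduction label names the empty vector, but their titles name WT cells with the Ets1 virus and their strain label is C57BL/6J. Gm27162, a long non-coding RNA gene next to Ets1 (chromosome 9, 32904937 to 32928966, GRCm38), was used as a check of genotype. It had 0 counts in each of these 4 libraries, 0 in each of the 4 KO libraries with Ets1 virus and 0 in both untransduced KO libraries. WT cells with empty virus had 59 counts over 4 libraries and untransduced WT cells 66 over 2. Against the limit that a count of 0 allows, 3 counts in the summed total of the 4 empty-virus libraries, the WT level with empty virus was at least 18.65-fold higher. The labelled WT strain of the 4 empty-virus libraries thus goes against their Gm27162 counts and the name under which they were filed does not. Every direction below rests on that name. A further 4 libraries, titled KO with empty virus but filed as WT with Ets1 virus, had 44 Gm27162 counts; they are called the libraries filed as WT with Ets1 virus.

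The 8 libraries held 1598409 to 6131170 gene counts. Each group consisted of B numbers 1 and 2 with T numbers 1 and 2 in each. T numbers were summed within a B number, so n = 2 per group, and nothing in the labels says that B numbers were separate animals. B number 1 libraries had Ddx3y counts and at most 1 Xist count and B number 2 libraries the reverse, so that the B numbers were not repeats of 1 animal, and B number and sex cannot be told apart. Levels are CPM, gene counts relative to the library's total and scaled by TMM. Summed CD4 T cell markers were at 1460 to 1510 CPM with empty virus and 1420 to 1590 with Ets1 virus. Summed CD8 markers were at 2.81 to 6.91 and 4.35 to 5.52 CPM. Of 10 myeloid markers 5 had no count in either group, Lyz2, Csf1r and Adgre1 among them, and the list summed to 1.88 to 7.6 CPM with empty virus and 4.75 to 9.49 with Ets1 virus. The 8 B cell markers summed to 37.2 to 88.2 and 41.9 to 108.0 CPM, with Cd79a and Ms4a1 at 0 counts with empty virus but not with Ets1 virus. The 8 dendritic cell markers summed to 81.9 to 102.0 and 82.1 to 101.0 CPM, of which Batf3, a gene that activated T cells also express, made up most (means 87.75 and 83.34). NK cell markers summed to 3.13 to 6.68 and 2.3 to 6.92 CPM and gamma-delta T cell markers to 1.75 to 3.22 and 1.51 to 3.16. The part of such cells in the results was not tested. Mitochondrial genes took 10.8% to 12.9% of counts with empty virus and 13.1% to 13.5% with Ets1 virus, ranges that do not overlap; the part of this difference in the results below was not tested. In bulk RNA, fewer cells of a type and less RNA per cell cannot be told apart.

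Ets1 itself rose with its virus. Its level in the empty-virus libraries was 191.3 and 190.9 CPM at B number 1 and 262.9 and 248.4 at B number 2. With Ets1 virus it was 452.8 and 437.5 CPM at B number 1 and 379.7 and 377.0 at B number 2. No library of one group reached the range of the other. The log2 fold change was 0.88 (SE 0.13, adjusted p = 0.0189, edgeR quasi-likelihood test). The group mean of 413.7 CPM ± 46.15 (SD, n = 2) lay above that of WT cells with empty virus, 346.7 ± 2.26, while untransduced KO cells were at 224.3. Gene counts do not separate reads of the virus from reads of the cell's own Ets1. The increase at B number 1 was 1.22 on the log2 scale and 0.57 at B number 2. Without the sums of B number 1 in both groups it was 0.57 with an adjusted p of 0.998, and without the B number 1 sum of either group alone 0.66 (adjusted p = 0.694) or 0.62 (0.89). Fli1, the neighbouring ETS factor gene, was at 40.13 CPM ± 6.29 with empty virus and 44.89 ± 6.44 with Ets1 virus (log2 fold change 0.16, adjusted p = 0.862).

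**Figure D1:**
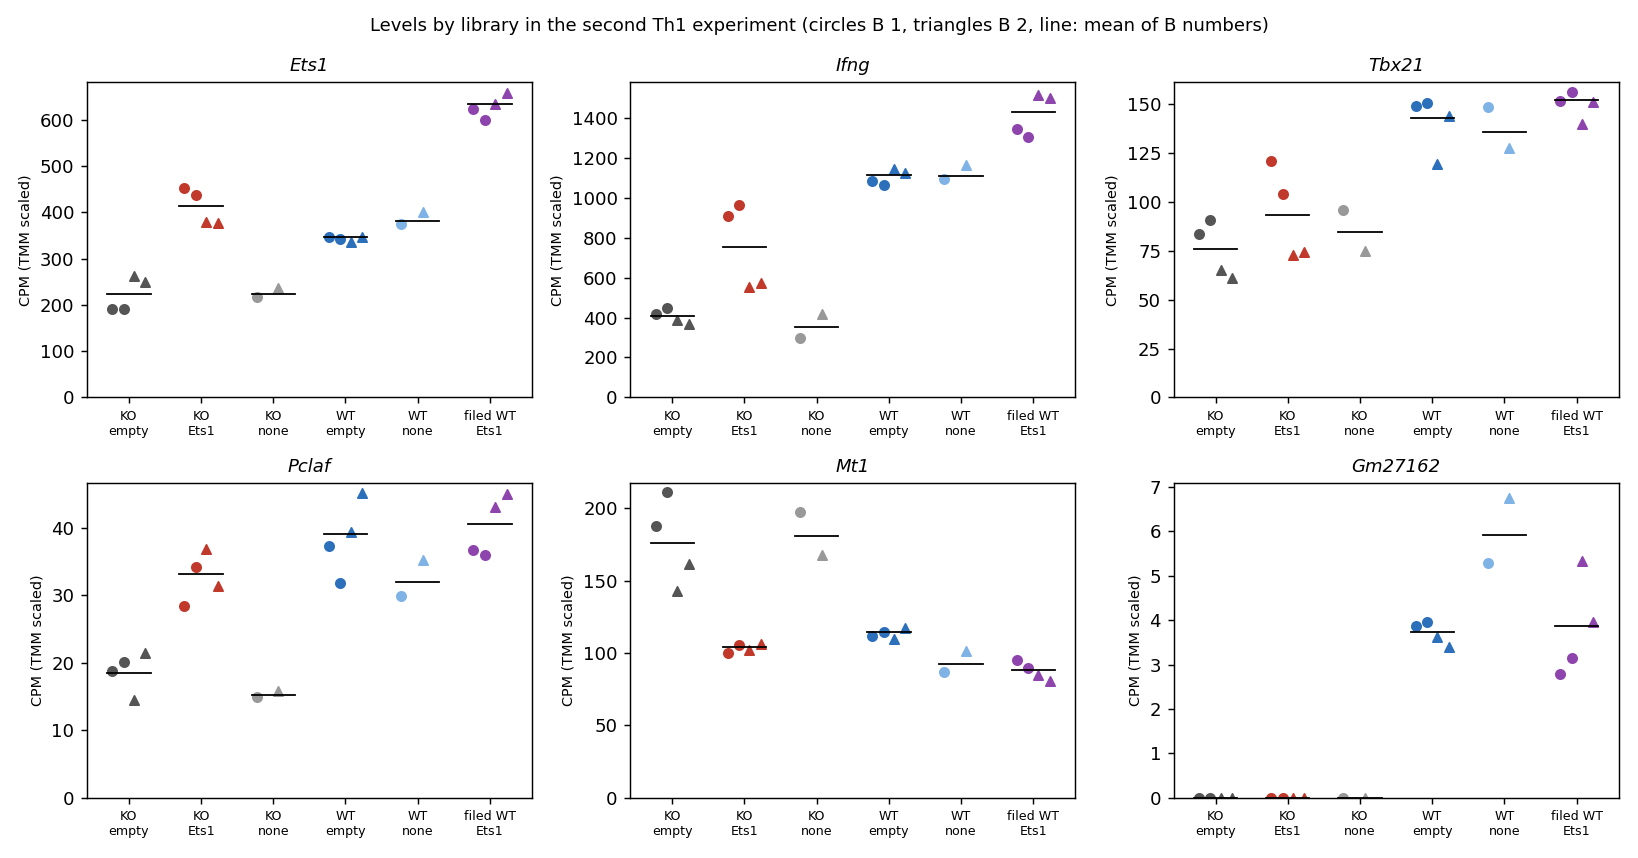
Levels in CPM of 6 genes in each library of the 6 groups of the second Th1 experiment (x axis, genotype above virus); circles are B number 1, triangles B number 2, lines the mean of the B numbers. Ets1 and Ifng are higher, and Mt1 lower, in all 4 KO libraries with Ets1 virus than in any KO library with empty virus, and Gm27162 is at 0 in every library of the 3 KO groups.

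Of 11275 genes tested, 3 (0.0266%) passed an adjusted p of 0.05: Ets1 and Pclaf were higher and Mt1 was lower with the Ets1 virus. Pclaf, which encodes a small protein that binds the replication clamp PCNA, was at 18.76, 20.17, 14.48 and 21.41 CPM in the empty-virus libraries. It was at 28.32, 34.21, 36.78 and 31.38 CPM with Ets1 virus. The log2 fold change was 0.87 (SE 0.14, adjusted p = 0.0358), and WT cells with empty virus were at 39.05 CPM ± 5.67 (SD, n = 2). Mt1, a metallothionein that binds zinc and copper, was at 187.6, 211.0, 142.9 and 161.4 CPM with empty virus. With Ets1 virus its 4 libraries lay close together at 99.82, 105.8, 102.0 and 106.4 CPM, near the WT level of 114.5 ± 0.52. Its log2 fold change was -0.74 (SE 0.13, adjusted p = 0.0452). All 8 libraries separated by virus for both genes.

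These calls stand close to the threshold. With no block for B number, 0 genes were called by edgeR (569 had an unadjusted p under 0.05 against 777 with the block), and Ets1 then had an adjusted p of 0.0712. DESeq2 also called 3 genes, without Pclaf (adjusted p = 0.293). Pclaf missed the threshold without the empty-virus library of B number 2, T number 1 (0.143) and without the Ets1-virus libraries B 1 T 2 (0.0815) or B 2 T 1 (0.0812). Mt1 missed it without the empty-virus libraries B 1 T 2 (0.0629) or B 2 T 2 (0.108) and without the Ets1-virus libraries B 1 T 2 (0.0591) or B 2 T 1 (0.0812). In edgeR, Pclaf and Mt1 also missed it with a block shared by both genotypes (0.0963 and 0.128). The same held with KO libraries only (0.171 and 0.0973). Over left-out sums and B numbers their log2 fold changes were 0.682 to 0.999 for Pclaf and -0.97 to -0.524 for Mt1. Ets1 kept its call without each single library, but with KO libraries only its adjusted p was 0.063 in edgeR. It also lost its call without the empty-virus sum of B number 2, a fit with 1 sum in that group (log2 fold change 1.12).

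Promoter windows of both called genes other than Ets1, and of Ifng, are shown because ETS factors read such sequence. Each is the 250 bases before the RefSeq start (GRCm38.p6), with GGAA or its reverse complement TTCC in capitals. The windows are chr9:65890073-65890322 (plus strand) for Pclaf, chr8:94178839-94179088 (plus strand) for Mt1 and chr10:118440796-118441045 (plus strand) for Ifng.
Pclaf: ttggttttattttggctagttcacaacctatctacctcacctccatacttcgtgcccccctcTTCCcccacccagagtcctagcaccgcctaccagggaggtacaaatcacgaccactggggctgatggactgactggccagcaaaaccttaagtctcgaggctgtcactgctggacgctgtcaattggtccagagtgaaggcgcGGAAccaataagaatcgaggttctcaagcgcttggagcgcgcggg
Mt1: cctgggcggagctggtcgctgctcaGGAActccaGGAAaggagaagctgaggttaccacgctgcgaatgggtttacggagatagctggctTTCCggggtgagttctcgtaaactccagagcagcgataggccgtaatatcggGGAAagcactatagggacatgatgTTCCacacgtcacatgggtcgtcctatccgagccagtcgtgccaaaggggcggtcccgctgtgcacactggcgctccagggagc
Ifng: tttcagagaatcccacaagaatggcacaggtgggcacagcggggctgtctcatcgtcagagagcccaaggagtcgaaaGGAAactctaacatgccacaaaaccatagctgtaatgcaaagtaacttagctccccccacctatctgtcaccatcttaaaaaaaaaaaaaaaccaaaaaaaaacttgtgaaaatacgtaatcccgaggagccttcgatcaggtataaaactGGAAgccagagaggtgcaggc
The core occurs 2 times in the Pclaf window, 5 times in that of Mt1 and 2 times in that of Ifng, counted on both strands. The core was common: 96.6% of the 8456 tested genes with a window held it, here counted with the 50 bases after the start. The longer ETS sequence CCGGAAGT, which contains the core, was absent from these 3 windows on both strands. Of the 8456 tested genes with a window 10.4% held it, again counted with the 50 bases after the start.

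Ifng was higher in every library with Ets1 virus than in any with empty virus, but the difference did not pass the threshold. With empty virus Ifng was at 418.9 and 446.9 CPM at B number 1 and 386.3 and 368.9 at B number 2. With Ets1 virus it was at 908.8 and 961.9 CPM at B number 1 and 552.9 and 571.8 at B number 2. The 8 libraries did not overlap, and the increase was larger at B number 1 (1.11 on the log2 scale) than at B number 2 (0.57). The log2 fold change was 0.87 (SE 0.18, unadjusted p = 0.000132, adjusted p = 0.135). The mean of 753.4 CPM ± 266.3 (SD, n = 2) lay between untransduced KO cells at 354.8 ± 86.36 and WT cells with empty virus at 1114 ± 41.4. In edgeR Ifng did pass when only the 4 sums of this contrast were fitted (adjusted p = 3e-05), which left 1 residual degree of freedom. It did so when all genes with a count were tested (4.08e-12) and when libraries were not summed (8.59e-07), which takes T numbers as replicates. It also passed without the B number 2 sum of the Ets1 virus, a fit with 1 sum in that group (log2 fold change 1.28). Ifng passed in none of the remaining alternatives with the same groups. Among these were DESeq2 and, in edgeR, no block (0.377) and KO libraries only (0.2). The adjusted p of Ifng ranged from 4.08e-12 to 1.0 over the alternatives with the same groups.

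To describe genes that did not pass the test, a gene was called separated when both Ets1-virus libraries lay above, or both below, both empty-virus libraries at each B number. This rule was chosen after the 3 calls were seen, and carries no test. Over all 11275 genes, 778 (6.9%) were separated higher and 680 (6.03%) separated lower. None of the list members named from here on passed an adjusted p of 0.05.

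Of 30 genes of the Th1 programme 29 were tested, of which 6 (20.7%, against 6.9% of all genes) were separated higher and 0 lower. The median log2 fold change of this list was 0.04 against 0.00 over all genes. Tbx21, the master transcription factor of Th1 cells, was at 83.78, 90.98, 65.08 and 61.02 CPM with empty virus and 120.9, 104.3, 72.97 and 74.56 with Ets1 virus. Its groups overlapped when B numbers were pooled, and its log2 fold change was 0.28 (SE 0.11, adjusted p = 0.654); WT cells with empty virus were at 143.2 CPM ± 11.8. The chemokine Ccl3 was at 15.63, 16.41, 22.91 and 19.57 CPM against 36.96, 37.08, 24.72 and 24.1 (log2 fold change 0.59, adjusted p = 0.492), with most of the difference at B number 1. Its relative Ccl4 had means of 16.28 and 21.87 CPM (0.44, adjusted p = 0.655) and WT 27.54. Bhlhe40, a transcription factor that supports interferon gamma output, was at 910.7 CPM ± 83.2 and 1002 ± 162 (0.13, adjusted p = 0.881). Nkg7, a granule protein gene, was the remaining separated member, at 87.7 and 96.4 CPM. The receptor gene Il12rb2, through which interleukin 12 acts, was at 476.4 CPM ± 19.6 and 497.8 ± 3.01.

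Of 15 listed cytotoxic genes 9 were tested. Nkg7 alone was separated higher (11.1%, against 6.9% of all genes) and Lamp1 alone lower (11.1%, against 6.03%). Of the 9, 7 (77.8%, against 50.5% of all genes) were positive, with a median of 0.14. Prf1, the gene of the pore-forming protein perforin, was at 12.5, 12.19, 13.37 and 16.12 CPM with empty virus. With Ets1 virus it was at 10.36, 13.8, 14.24 and 17.82 CPM, overlapping the first group, while WT cells with empty virus were at 29.68 ± 3.50. The log2 fold change of Prf1 was 0.09 (SE 0.18, adjusted p = 0.962). Gzmb, granzyme B, followed B number rather than virus, at 644.6 to 727.4 CPM in the 4 libraries of B number 1 and 1566 to 1665 in those of B number 2. Srgn, the core protein of the granule matrix, was at 600.2 and 675.8 CPM. Among 6 tested NK-type receptor genes 1 (16.7%, against 6.03% of all genes) was separated lower and 0 higher (against 6.9%). The 1 gene was Klrc1, at 17.9 and 14.3 CPM, and Slamf7 was at 91.1 and 92.2 CPM.

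Th2 genes were separated in both directions. Of 22 listed genes 15 were tested. Of these 15, 4 (26.7%, against 6.9% of all genes) were separated higher and 3 (against 6.03% of all genes) lower. Gata3, the transcription factor of the Th2 fate, was at 27.51, 27.67, 46.15 and 61.94 CPM with empty virus and 32.47, 29.03, 71.38 and 74.81 with Ets1 virus. Il13, a Th2 cytokine, was at 13.76, 15.01, 20.05 and 20.49 CPM against 19, 20.98, 27.68 and 35.14. Both were separated higher although WT cells with empty virus had lower levels than either KO group, 8.55 CPM ± 0.92 for Gata3 and 3.36 ± 1.34 for Il13. The log2 fold changes were 0.35 for Gata3 (adjusted p = 0.654) and 0.56 for Il13 (adjusted p = 0.527). Il10, the gene of an inhibitory cytokine, was at 7.50, 5.63, 12.73 and 13.35 CPM against 4.15, 3.16, 8.90 and 5.77 (log2 fold change -0.80, adjusted p = 0.527). Il4ra and Nfil3 were also separated lower (476.2 and 418.6 CPM, 167.2 and 138.4 CPM), and Il24 was at 299.4 and 294.1 CPM.

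**Figure D2:**
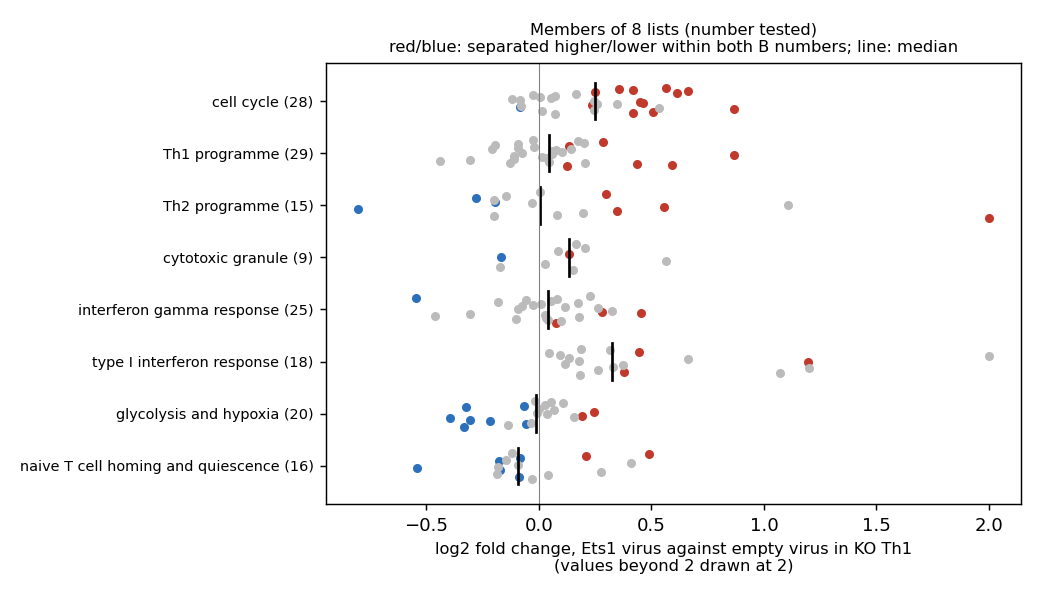
Log2 fold change (x axis) of the tested members of 8 gene lists (rows), Ets1 virus against empty virus in KO Th1 cells; red points were separated higher and blue points separated lower within both B numbers, and black bars are list medians. The median of the 28 cell cycle genes lies at 0.25, and that of the 29 Th1 genes at 0.04.

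The cell cycle list held the largest share of genes separated higher among the biological lists described here. All 28 genes were tested. Of these, 12 (42.9%, against 6.9% of all genes) were separated higher and 1 (3.57%, against 6.03%) lower. A positive log2 fold change was found for 23, and 10 of these had an unadjusted p under 0.05. Over all 11275 genes, 50.5% had a positive log2 fold change and 413 of them an unadjusted p under 0.05. The median was 0.25 with the Ets1 virus, 0.21 at B number 1 and 0.30 at B number 2. Ccnb1, the mitotic cyclin B1, was at 9.38, 9.85, 13.53 and 16.12 CPM with empty virus. With Ets1 virus it was at 21.76, 24.15, 23.14 and 21.59 CPM, without overlap, and WT cells with empty virus were at 25.21 ± 3.38. Its log2 fold change was 0.87 (SE 0.19, adjusted p = 0.163). The mitotic kinase gene Plk1 had means of 13.87 and 21.99 CPM (0.66, adjusted p = 0.36), and Top2a, a topoisomerase of dividing cells, 250.9 and 322.9 (0.36, adjusted p = 0.546). Mki67, the proliferation marker Ki-67, was at 91.45 to 111.7 CPM in the empty-virus libraries and 149.5 to 162.9 with Ets1 virus. In WT cells with empty virus Mki67 differed between B numbers, 369.1 and 371.4 CPM at B number 1 and 103.1 and 92.91 at B number 2. Ccnd2, a G1 cyclin and the most abundant gene of the list, was the 1 member separated lower (1745 and 1650 CPM). In the libraries filed as WT the median of the list with the Ets1 virus was 0.05.

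**Figure D3:**
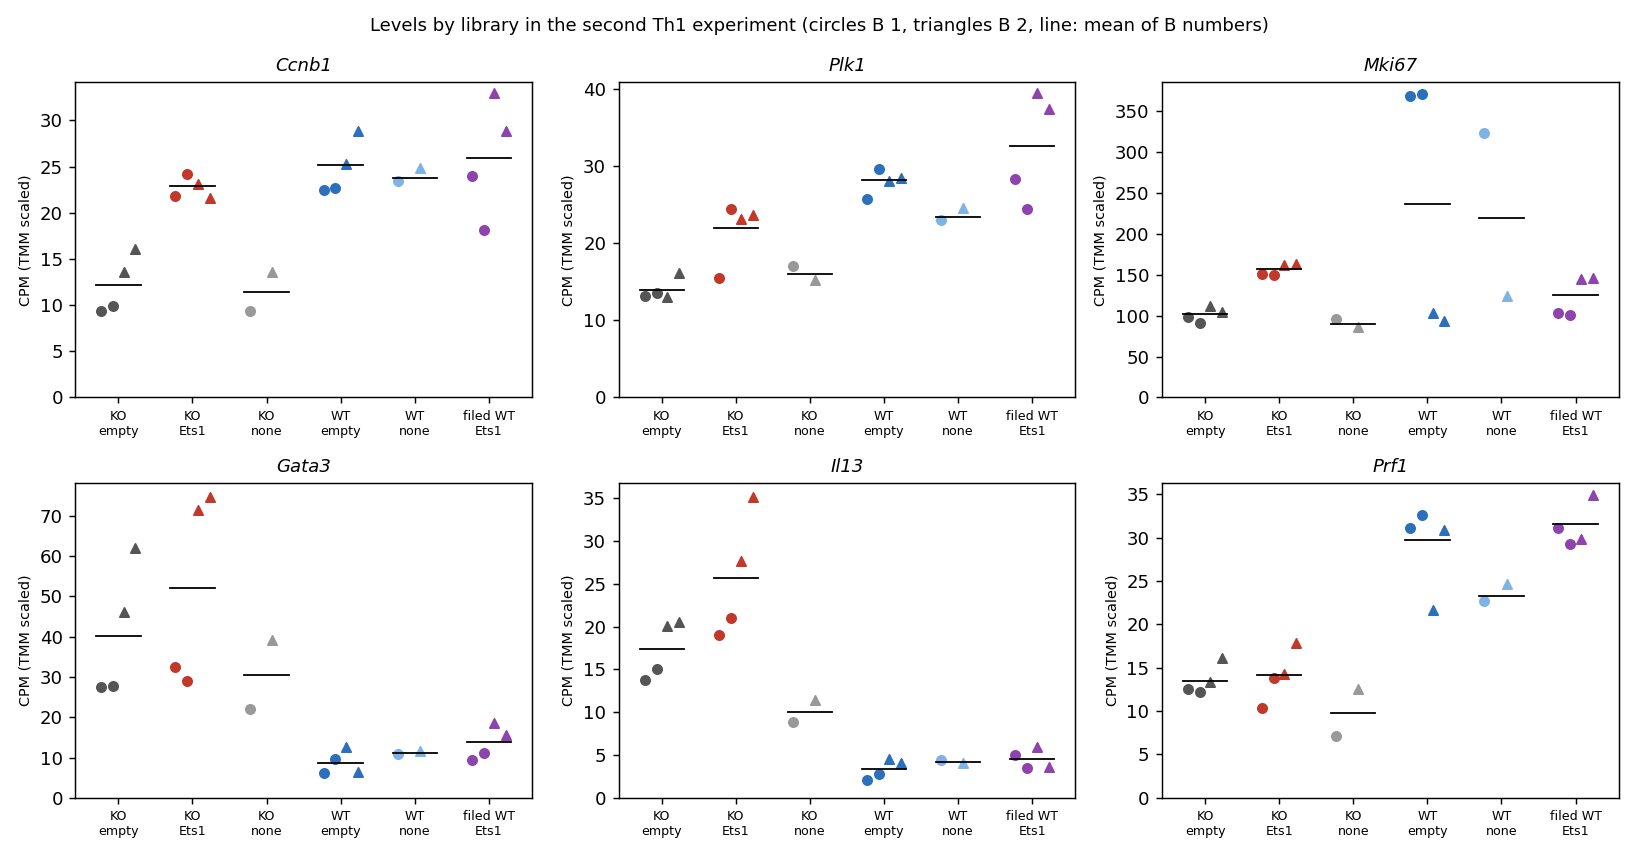
Levels in CPM of 6 further genes in each library of the 6 groups (x axis, genotype above virus); circles are B number 1, triangles B number 2, lines the mean of the B numbers. Ccnb1 and Mki67 separate the KO libraries by virus, Gata3 and Il13 are lower in WT cells than in both KO virus groups, and Prf1 overlaps between the KO virus groups.

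Genes of both interferon responses were examined. Of 28 listed genes of the interferon gamma response 25 were tested, with 3 separated higher and 1 lower and a median of 0.04. Its most abundant members were B2m, the light chain of MHC class I, at 811.5 and 860.4 CPM, and the immunoproteasome gene Psmb8 at 378.7 and 382.6. Of 25 listed genes of the type I interferon response 18 were tested. All 18 had a positive log2 fold change, against 50.5% of all genes, from 0.04 to 2.32 with a median of 0.32. Of these, 3 (16.7%, against 6.9% of all genes) were separated higher (Isg15, Usp18 and Ddx58) and 0 lower. Usp18, which dampens interferon receptor signalling, was at 26.89, 23.45, 26.73 and 25.79 CPM against 41.79, 40.25, 30.85 and 29.37 (0.45, adjusted p = 0.635). Untransduced KO cells were at 47.63 CPM ± 9.12. The most abundant members, Oas3 and Irf9, were at 51.0 and 53.8 CPM and at 48.5 and 52.2. In the libraries filed as WT the list's median with the Ets1 virus was 0.35.

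Further lists are given by their counts. Over all genes 6.9% were separated higher, 6.03% were separated lower and 50.5% had a positive log2 fold change. Of 31 genes of the T cell receptor complex and its proximal signalling, all tested, 5 were separated higher (Cd4, Lcp2, Vav1, Ptpn6 and Sla) and 0 lower, with a median of 0.05; Ptprc was at 571.0 and 647.8 CPM and Cd2 at 544.4 and 531.1. Among 14 tested genes of the ETS family list, Etv5 (30.1 and 44.1 CPM) and Ets2 (25.8 and 32.8) were separated higher. Glycolysis and hypoxia genes had 2 of 20 separated higher (Hk2 and Pfkl) and 7 lower, with 40.0% positive and a median of -0.01. Aldoa, the aldolase of glycolysis, was at 1505 CPM ± 15.1 and 1200 ± 54.4 (-0.33, adjusted p = 0.588), and Pkm at 2225 and 2138. Of 16 genes of naive homing and quiescence 2 were separated higher and 5 lower, with a median of -0.09, among the latter Satb1 (1368 and 1298 CPM) and Btg1 (280.1 and 264.3). Of 10 tested inhibitory receptor genes, with a median of 0.14, 3 were separated higher: Ctla4 at 164.8 and 212.1 CPM, Cd200 at 159.3 and 197.8 and Lag3 at 73.8 and 85.5. Of 12 tested heat shock genes 4 were separated higher, including Hsp90ab1 (3229 and 3357 CPM), and 11 had a positive log2 fold change, with a median of 0.06. The interleukin 2 receptor chains Il2ra (3167 and 3319 CPM) and Il2rb (404.4 and 383.7) had log2 fold changes of 0.06 and -0.08. The cytokine gene Lif was at 242.5 to 285.3 CPM with empty virus and 337.8 to 368.6 with Ets1 virus (0.40, adjusted p = 0.36).

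Genes altered by the KO were taken from the first Th1 experiment, whose 3 WT and 3 KO libraries were not part of the virus comparison. All 6 carry B number 1, so that T numbers served as replicates there and p-values may measure technical spread alone. In that fit 369 of 12195 genes (3.03%) passed an adjusted p of 0.05 (edgeR quasi-likelihood test), 162 lower and 207 higher in KO. Of the 162 lower in KO 156 were tested here. With the Ets1 virus 26 (16.7%, against 6.9% of all genes) were separated higher and 5 lower. A positive log2 fold change was found for 62.2% against 50.5% of all genes, and the median was 0.05. Without Ets1, and hence over 155 genes, the median was also 0.05. Of the 207 higher in KO 174 were tested. In this list 22 (12.6%, against 6.03% of all genes) were separated lower and 7 higher. A positive log2 fold change was found for 33.9%, and the median was -0.08. Both medians lay on the side of the WT level. They were small beside KO differences of single genes in the first experiment, for example -0.26 for Spn and -2.27 for Prf1. Prf1 had the smallest adjusted p of that fit (4.55e-06, over T numbers of 1 B number). The median KO difference of either list was not computed. The median of the genes lower in KO was 0.0 without the B number 2 sum of the Ets1 virus.

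**Figure D4:**
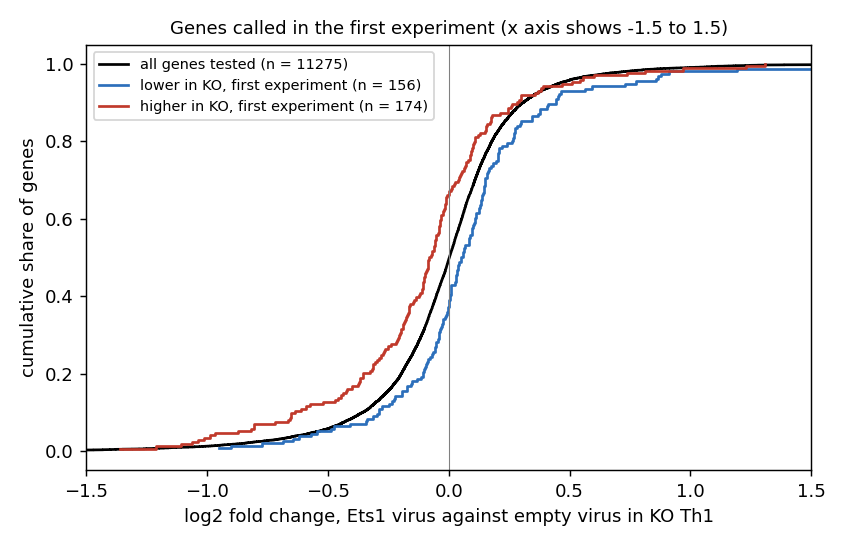
Cumulative share of genes (y axis) against their log2 fold change, Ets1 virus against empty virus in KO Th1 cells (x axis, shown from -1.5 to 1.5). Curves are the 156 genes lower in KO and the 174 genes higher in KO in the first experiment, beside all 11275 genes tested; the first curve is shifted to the right of all genes and the second to the left.

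Among the genes lower in KO, those separated higher included Muc13, a transmembrane mucin gene, at 7.50, 9.38, 12.25 and 9.21 CPM with empty virus and 16.58, 17.25, 16.02 and 16.82 with Ets1 virus. The WT level with empty virus was 31.97 CPM ± 2.85, and the log2 fold change 0.73 (adjusted p = 0.376). Itga4, an integrin of T cell migration, was at 50.0 and 61.4 CPM (0.29, adjusted p = 0.688), and the adhesion molecule gene Thy1 at 278.6 and 307.5 (0.14, adjusted p = 0.851), with 74.4 and 431.0 in WT. Among the genes higher in KO, Cd24a, a surface glycoprotein gene, was at 35.64, 36.11, 34.05 and 33.62 CPM against 15.89, 24.43, 18.79 and 16.82. Its groups did not overlap, its log2 fold change was -0.87 (adjusted p = 0.101), and WT cells with empty virus were at 8.73 CPM ± 1.82. Lgals3, the gene of galectin 3, had means of 82.23 and 51.77 CPM (-0.66, adjusted p = 0.255; WT 22.8), and Cxcr4, a chemokine receptor gene, 24.91 and 15.28 (-0.66, adjusted p = 0.376; WT 12.61). For these members the level with Ets1 virus stood between those of KO and WT cells with empty virus. They were chosen after their values were seen, as were the other genes named for being separated.

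The virus effect in KO was set against that in the libraries filed as WT by an interaction term. No gene passed an adjusted p of 0.05, in edgeR (smallest adjusted p 0.713, 526 genes with an unadjusted p under 0.05) or in DESeq2 (94 genes). For Ets1 the difference between both effects was 0.00 (SE 0.18, unadjusted p = 0.987): the Ets1 virus came with a log2 fold change of 0.88 in each. For Ifng the effect was 0.87 in KO and 0.37 in the libraries filed as WT (difference 0.49, SE 0.25, unadjusted p = 0.0654). For Pclaf the effects were 0.87 and 0.07 (difference 0.80, unadjusted p = 0.0005) and for Mt1 -0.74 and -0.36 (difference -0.38, unadjusted p = 0.0492). Pclaf and Mt1 were picked by their effect in KO, which is part of this difference. Their unadjusted p-values therefore cannot decide whether the effects differ.

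Small nucleolar RNA genes, which guide chemical modification of ribosomal RNA, formed a group noticed after the data were seen. Of 94 tested 49 (52.1%, against 6.03% of all genes) were separated lower and 0 higher, with a median of -0.72. They took 0.153% to 0.159% of gene counts in the empty-virus libraries and 0.103% to 0.118% in those with Ets1 virus. The untransduced KO libraries had 0.251% and 0.133%. They differed by as much as the virus groups, but also in B number and in gene counts (3673270 and 1813288). In the libraries filed as WT the median was 0.28, in the opposite direction, and the part of library preparation in these values was not tested.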

How the data were processed

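The authors deposited a table of unnormalised read counts by gene per library from STAR 2.5.0a on GRCm38, per the submitters' processing notes. Libraries were strand-specific total RNA, per the labels' protocols. The strand holding 93.8% to 95.2% of stranded gene counts was used; summary lines (64.0% to 72.5% of tabulated reads) stayed out. Of 45706 identifiers 45143 matched GENCODE M21 (GRCm38), a release not named in the sources used here. Virus and genotype of the 8 libraries followed the names of the deposited tables. Library pairs of one B number differed by more than sampling noise.

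Counts were summed over T numbers and fitted with edgeR 4.0.16 in R 4.3.3 (quasi-likelihood test, TMM, filterByExpr, threshold 0.05 on p-values adjusted by Benjamini-Hochberg over every gene in the fit). One fit held 12 sums of 6 groups, with B number as a block within genotype and 4 residual degrees of freedom. Differences between B number 2 and 1 correlated across genes between KO groups at 0.165, 0.0346 and 0.288. The pairing was taken from the B numbers of the titles and not from these correlations. For the empty-virus libraries those titles name another genotype and virus. Differences within a B number used a pseudocount of 0.5 CPM. P-values of the virus comparison measure how far group differences disagreed between B numbers, over all 12 sums. The offset between B numbers within a genotype was taken out before, and B numbers differ in sex-linked transcripts. P-values of the first experiment measure the spread between T numbers of 1 B number, which may be technical. Limits for counts of 0 used 3 counts and cover counting error only, as the tables carry no molecular identifiers. Sequences came from RefSeq windows (GRCm38.p6). Scripts were tested on simulated data.

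The named genes were Ets1, Gm27162, Fli1 and Ifng, the genes past the threshold with separate sums (up to 12 per direction), and in each list the called members and, with fewer than 2 of these, the 2 with the highest mean level. Other genes named, mostly for being separated, were chosen after their values were seen. The members and lists were chosen with earlier results of these data known, and the separation rule, the small nucleolar RNA list and the list without Ets1 were added on seeing these results. Beside the main fit, 25 alternative settings were tried for the virus comparison (DESeq2 1.42.0 among them), 10 for the first experiment and 3 for the interaction.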

Additional observations from a re-analysis of the deposited data

How the results depend on the processing

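The count of 3 genes called in the virus comparison changed with the design more than with the scaling. It was 3 with DESeq2, with its size factors in edgeR and with counts without strand. It was 71 with any gene with a count, 51 with only the 4 sums compared, 175 with libraries not summed (which takes T numbers as replicates) and 7 without the other 4 libraries with conflicting titles. It was 0 with no replicate block, 1 with a block shared by both genotypes and 0 with KO libraries only. Leaving out 1 sum, 1 B number or 1 library gave 0 to 5; a lone sum was taken to vary like the other groups. With the empty-virus group taken by title, an alternative chosen after seeing the data, 289 genes were called and directions reversed: the log2 fold change was -0.61 for Ets1, -0.93 for Ifng, -0.30 for Pclaf and 0.24 for Mt1, and the cell cycle median -0.28. The libraries so titled carried Gm27162 counts.

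The first experiment gave 369 calls, 803 with any gene with a count and 118 to 480 without 1 library; 361 were called with a replicate block of T number. The median of genes lower in KO was 0.0483 with DESeq2's size factors, 0.0484 with DESeq2, 0.0414 with libraries not summed and 0.0604 without strand. It was 0.0 to 0.101 over left-out sums and libraries and -0.337 with groups by title. That of genes higher in KO was -0.0988 to -0.0559 over left-out sums and libraries and 0.482 by title. The interaction stayed at 0 calls in its 3 alternatives, and the cell cycle median at 0.202 to 0.307 in every setting with the same groups. With 2 sums per group and 4 residual degrees of freedom the design limits what can be called, and values at low counts rest on few reads.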
